A study of Chlorocebus aethiops with 8 samples.

Results

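The nuclear genes for subunits of respiratory complexes II, III, IV and V were followed in COS cells given siRNA to DHX9, the gene of RNA helicase A (RHA), and in cells given control siRNA. Members were all probe sets listed under the single gene symbol SDHA, SDHB, SDHC, SDHD, CYC1 or CYCS, or under a single symbol that begins with UQCR, COX4, COX5, COX6, COX7, COX8 or ATP5. The rule found 54 of the 52865 probe sets on the array: 4 for complex II, 13 for complex III, 11 for complex IV and 26 for complex V, under 33 of 14132 gene symbols. No probe set was listed under SDHD or CYCS alone, and the probe sets of COX4I1 and COX6A1 carry a further symbol, so these genes are not among the members.

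COS cells are a kidney line of the African green monkey that carries the SV40 large T antigen. They were read here on rhesus macaque Affymetrix arrays, so macaque probes measured transcripts of a related monkey. The 4 groups of 2 arrays were polysomal RNA under RHA siRNA, polysomal RNA under control siRNA, cytoplasmic RNA under RHA siRNA and cytoplasmic RNA under control siRNA. Polysomes were taken from sucrose gradients of cytoplasmic lysates. Each siRNA was used at 0.5 nM, in repeated transfections, with the RHA siRNAs designed on the human coding sequence and the control siRNA a scrambled one. From each sample 25 ng of RNA was amplified and labelled, so levels are relative to the RNA put in. Fewer cells expressing a gene and less of its RNA per cell cannot be told apart.

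Complex II, succinate dehydrogenase, joins the citric acid cycle to the respiratory chain by passing electrons from succinate to ubiquinone. Complex III takes electrons from ubiquinol and hands them to cytochrome c, complex IV passes them on to oxygen, and complex V, the ATP synthase, uses the proton gradient built on the way to make ATP. The subunits treated here are translated from nuclear mRNAs on cytosolic ribosomes and imported, whereas a few subunits of complexes III, IV and V come from mitochondrial DNA.

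Of the 54 probe sets, 45 were among the brightest 50% that were tested, and they cover 31 genes: 3 of complex II, 7 of complex III, 6 of complex IV and 15 of complex V. The test limit was a mean log2 intensity of 4.32, an intensity of 19.9. The genes left without a tested probe set were COX4I2, an isoform of subunit 4, and COX7A1, the muscle isoform of subunit 7A, with intensities of 14.9 to 20.7 and 8.97 to 17.4 over the 8 arrays. The other 7 dim probe sets belong to SDHC, COX5A, ATP5F1C, ATP5MG, ATP5PO and ATP5G1, which also have a brighter probe set under the same symbol (for ATP5G1 with another gene ID). COX6A2, the muscle isoform of subunit 6A, was tested close to the limit, with a mean log2 intensity of 4.38.

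Arrays that share a replicate number in their titles are called set 1 and set 2 here. Across probe sets, which are not independent, arrays of the same set had a Pearson's r of 0.931 to 0.987 and arrays of the same group one of 0.826 to 0.861, so many values below are also given within each set. Of the tested member probe sets, 20 of 45 differed between the sets (limma adjusted p under 0.05 for the replicate number), 9 of them higher in set 2, where 51.3% of all tested probe sets differed. Within set 1 the cytoplasmic control array was the least like the others (median r of 0.949). On Affymetrix control transcripts with probe sets at both ends, the 3' signal exceeded the 5' signal by log2 3.71 under RHA siRNA and 2.54 under control siRNA in the polysomal arrays of set 1, and by 2.997 under RHA siRNA and 4.07 under control siRNA in its cytoplasmic arrays. In set 2 the same difference was 3.77 under RHA siRNA and 4.12 under control siRNA in polysomal RNA, and 3.53 under RHA siRNA and 3.80 under control siRNA in cytoplasmic RNA. DHX9 read 97.2 and 269 in the polysomal RHA siRNA arrays of sets 1 and 2, against 359 and 477 in the polysomal control arrays, and 130 and 254 under RHA siRNA against 244 and 342 under control siRNA in cytoplasm. The mean log2 fold change of DHX9 was -1.01 (limma adjusted p = 1.00) on this probe set, the only one tested. Its other probe sets, under the test limit, had -0.67, -0.31 and, with another gene ID, -0.0025. Of the 14 kidney tubule markers 7 were above the test limit. They were AQP1, EPCAM, PAX8 and KRT8, and at low intensity CDH16 (24.2 to 59.1), KRT18 (18.4 to 76.8) and AQP2 (13.0 to 39.9). UMOD, LRP2 and SLC12A1 were among those under the limit. Of the 8 fibroblast markers with a probe set 7 were above it, with VIM, a mesenchymal filament gene, at 4043 to 6345, and COL1A2 was under it. FN1 (434 to 902) and S100A4 (270 to 917) were lower than VIM. COL1A1 (19.3 to 381), DCN (26.3 to 54.4), COL3A1 (18.7 to 50.4) and THY1 (17.1 to 46.8) came close to the limit on some arrays. Of the 7 genes with a probe set on the leukocyte list 4 were above the limit: CD68 at 105 to 286, LYZ at 27.8 to 119, and CD14 and CD79A close to it. PTPRC and ITGAM, the leukocyte markers CD45 and integrin alpha M, were under it. So was HBB, a haemoglobin gene that the list also held and that is not a leukocyte marker. The part of other cell types in the results was not tested.

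No member passed the test in any of the 7 contrasts. With limma over all 26383 tested probe sets, 0 of 45 member probe sets had an adjusted p under 0.05 for RHA over control siRNA as the mean of both fractions, in cytoplasmic RNA, in polysomal RNA or for polysome loading, and likewise 0 for polysomal over cytoplasmic RNA under either siRNA or their mean. The background was 0% in each of these contrasts. An unadjusted p under 0.05 was found for 1 member probe set in both fractions, 1 in cytoplasm, 0 in polysomes and 1 for loading, where 2.05%, 1.61%, 0.519% and 0.174% of all tested probe sets had one. Polysome loading here means the polysomal siRNA effect minus the cytoplasmic one, so a negative value is a lower ratio of polysomal to cytoplasmic signal under RHA siRNA. All values below are thus descriptions of these arrays, given with 1 probe set a gene, the brightest, unless another is named.

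In cytoplasmic RNA the members were more often higher under RHA siRNA than lower. Their median log2 fold change was 0.26, against 0.06 over all 10106 tested genes, and 23 of 31 genes lay above 0, where 56.1% of all genes did. The median of the members was 0.24 in set 1 and 0.05 in set 2, and 0.00 over both sets without the cytoplasmic RHA siRNA array of set 1. Values without 1 array, here and below, come from fits with no term for the set unless a block is named. The difference between the sets therefore enters them. In polysomal RNA the median was -0.15 (-0.17 in set 1 and -0.01 in set 2), against -0.00 over all genes, with 12 of 31 genes above 0 and a background of 49.7%. Polysome loading had a median of -0.25 over the members and -0.03 over all genes. It was below 0 for 22 of 31 members, against 53.2% of all genes, and below 0 in both sets for 17 of 31, against 28.2%. The loading median was -0.37 in set 1 and -0.06 in set 2, and -0.05 without the cytoplasmic RHA siRNA array of set 1. For the mean of both fractions the median was 0.08 over the members and 0.03 over all genes, and -0.06 over the members without that array. In that mean 21 of 31 genes lay above 0, with a background of 53.8%.

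The signal at the ends of the RNAs also differed between the arrays. The siRNA shift of the 3' minus 5' difference was -1.07 in cytoplasm, 1.17 in polysomes and 2.25 for loading in set 1, and -0.27, -0.35 and -0.08 in set 2. In set 1 the 4 arrays fell in exactly the reverse order of their 3' minus 5' difference for 3 of 31 members, ATP5F1B, UQCRC2 and ATP5MC2, where 6.12% of all genes did so. In set 2 this held for ATP5G1 and UQCRC2, with a background of 5.19%. The part of the RNA ends in the values below was not tested.

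**Figure D1:**
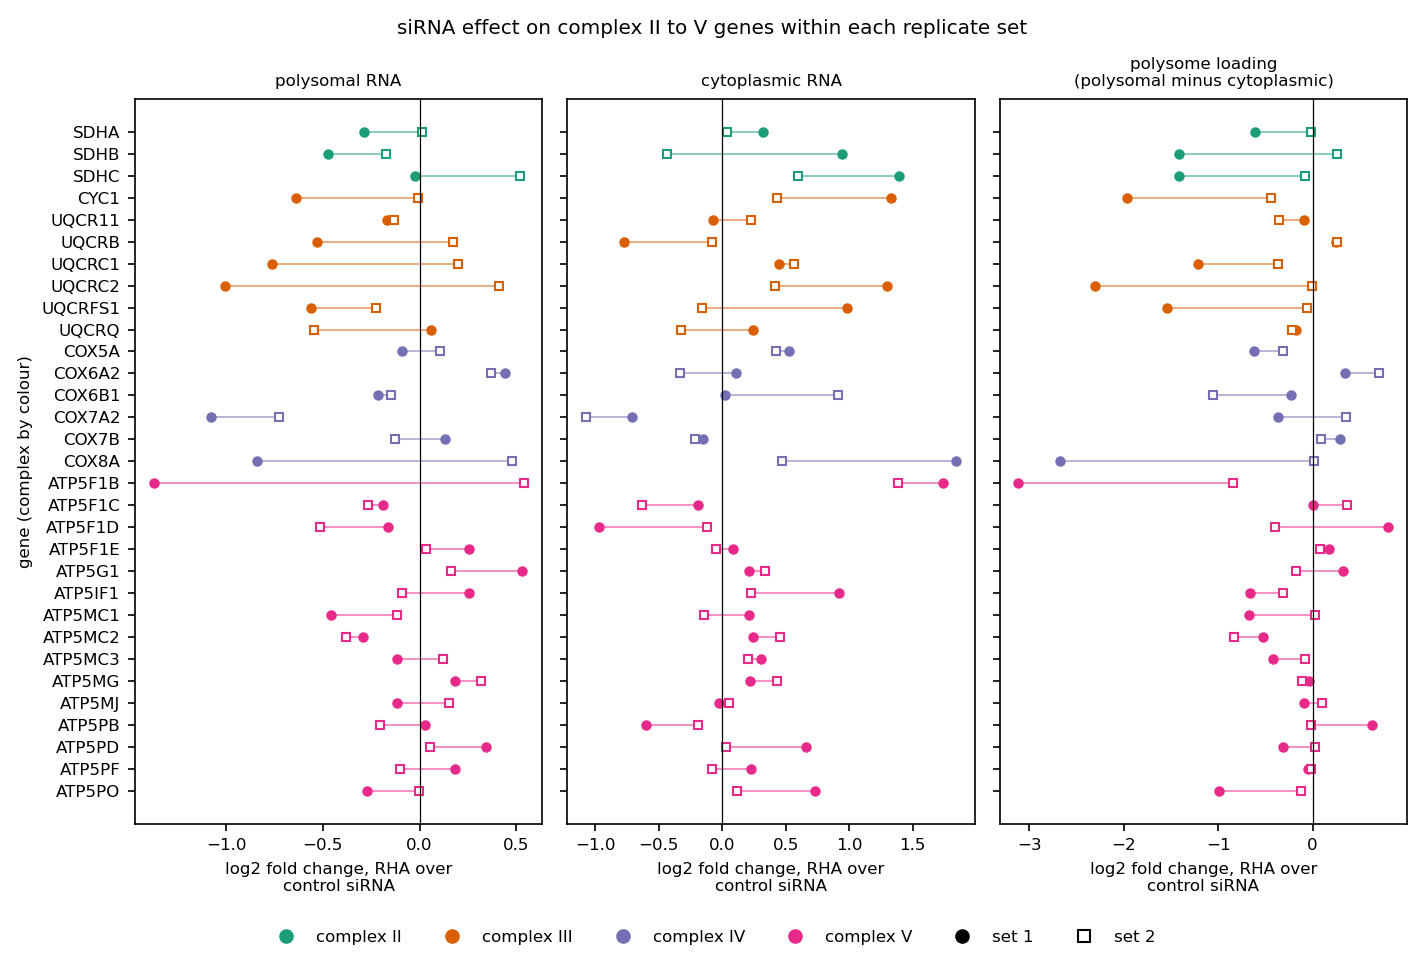
Log2 fold change of RHA over control siRNA for each of the 31 genes (rows, coloured by complex) in polysomal RNA (left), in cytoplasmic RNA (middle) and for polysome loading, polysomal minus cytoplasmic (right), with filled circles for set 1 and open squares for set 2. The horizontal scales differ between the panels. In the loading panel 17 genes lie left of 0 in both sets, and the values farthest left, down to -3.12 for ATP5F1B, are those of set 1.

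Complex II was represented by SDHA, the flavoprotein subunit that oxidises succinate, SDHB, the iron-sulphur subunit, and SDHC, a membrane anchor. SDHA read 445 and 526 in the polysomal RHA siRNA arrays of sets 1 and 2, against 542 and 522 in the polysomal control arrays, and 549 and 429.6 under RHA siRNA against 439 and 419.8 under control siRNA in cytoplasm. Its cytoplasmic log2 fold change was 0.18 (SE 0.31; 0.32 and 0.03 in sets 1 and 2), and the groups overlapped. SDHB read 541 and 696 under RHA siRNA against 752 and 787 under control siRNA in polysomal RNA, so the polysomal groups did not overlap and RHA siRNA was the lower one. Its polysomal log2 fold change was -0.33 (SE 0.41). In cytoplasmic RNA, SDHB went opposite ways in the sets, with 1094 and 640.4 under RHA siRNA against 568 and 866 under control siRNA. SDHC read 256 and 816 under RHA siRNA against 259 and 569.7 under control siRNA in polysomal RNA, and 350.1 and 836 under RHA siRNA against 133 and 552 under control siRNA in cytoplasm. The low array was the cytoplasmic control array of set 1, and SDHC was 1.99-fold in cytoplasm (log2 1.00, SE 0.92; 1.39 and 0.60 in the sets). Without that array it was at log2 -0.03, a value that sets the RHA siRNA arrays of both sets against the control array of set 2 alone.

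The complex II medians were 0.26 in cytoplasm, -0.14 in polysomes and -0.58 for loading. The loading median came from set 1, at -1.42, and was -0.02 in set 2. With the set 1 cytoplasmic control array left out, the cytoplasmic median of complex II was -0.03 and the loading median -0.28. That fit sets the cytoplasmic RHA siRNA arrays of both sets against the control array of set 2. Within sets 1 and 2 the cytoplasmic median was 0.94 and 0.03.

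Complex III held the lowest median loading of the 4 complexes, -0.79, with -1.21 in set 1 and -0.22 in set 2. Loading was below 0 in both sets for 6 of its 7 genes, and polysomal RNA was lower under RHA siRNA for 7 of 7 on average over the sets (median -0.28). The lowest values were those of the 4 core subunits: cytochrome c1 (CYC1), the Rieske iron-sulphur protein (UQCRFS1) and the core proteins UQCRC1 and UQCRC2. Their median loading was -0.98 (-1.75 and -0.21 in the sets), against -0.20 (-0.09 and -0.22) for the small accessory subunits UQCRB, UQCRQ and UQCR11. The difference between core and accessory subunits was not tested, and it depends on the probe set taken. The 3 tested probe sets of UQCRC1 had loadings from -1.42 to 0.39, and the 4 of UQCRB from -0.88 to 0.25.

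CYC1, the haem protein that passes electrons to cytochrome c, read 534 and 309.5 in the polysomal RHA siRNA arrays of sets 1 and 2, against 830.3 and 311 in the polysomal control arrays. In cytoplasmic RNA it read 859 and 332 under RHA siRNA, against 342 and 246 under control siRNA. CYC1 was thus higher under RHA siRNA in the cytoplasm of both sets, by log2 1.33 and 0.43, and lower in polysomal RNA of set 1. Its loading was -1.20 (SE 0.95; -1.97 and -0.44 in the sets; limma adjusted p = 1.00). UQCRC2, a core protein of the matrix side, read 93.5 and 165 under RHA siRNA against 188 and 124 under control siRNA in polysomal RNA. In cytoplasm it read 134 and 185 under RHA siRNA against 54.6 and 139. under control siRNA Its loading of -1.15 (SE 0.80) was -2.30 in set 1 and -0.00 in set 2, so set 1 alone carried it.

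UQCRFS1 read 253 and 608 under RHA siRNA against 372 and 711 under control siRNA in polysomal RNA, and was lower by log2 0.56 and 0.23 in the sets. In cytoplasm it read 404 and 596 under RHA siRNA against 205 and 667 under control siRNA, with the sets on opposite sides of 0. UQCRC1 had a loading of -0.79 (SE 1.41; -1.21 and -0.36). Of the accessory subunits, UQCRB read 438 and 586 under RHA siRNA against 632 and 519 under control siRNA in polysomal RNA, and 393 and 460.4 under RHA siRNA against 673 and 487 under control siRNA in cytoplasm, where the groups did not overlap and RHA siRNA was lower (log2 -0.43, SE 0.35). Its loading was 0.25 in set 1 and 0.26 in set 2, the one value above 0 in complex III on the brightest probe sets. UQCRQ read 3093 and 2140.1 under RHA siRNA against 2969 and 3126 under control siRNA in polysomal RNA, and 3487 and 1961 under RHA siRNA against 2956 and 2463 under control siRNA in cytoplasm, so the sets lay on opposite sides in both fractions. UQCRQ and UQCR11 had loadings of -0.20 (SE 0.57; -0.18 and -0.22) and -0.22 (SE 0.81; -0.09 and -0.36).

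**Figure D2:**
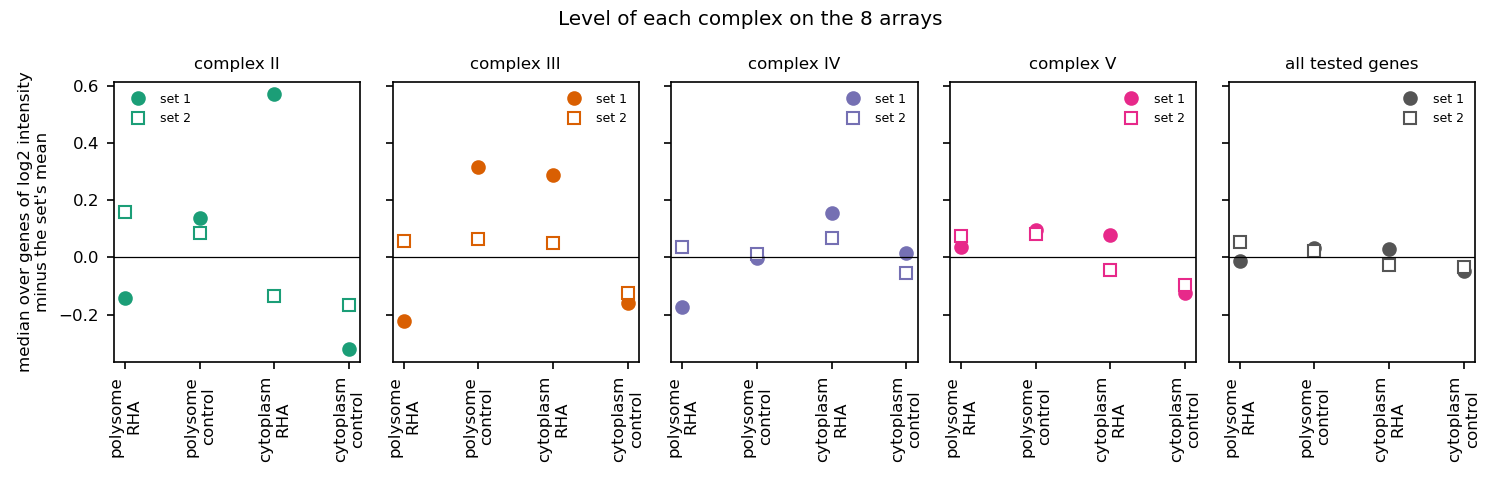
Median over the tested genes of each complex, and over all tested genes, of the log2 intensity on an array minus the mean of its set (vertical axis), for the 4 groups (horizontal axis), with filled circles for set 1 and open squares for set 2. Complexes II and III are spread widest in set 1, from -0.32 to 0.57 and from -0.22 to 0.32, whereas the medians of all genes lie between -0.05 and 0.06.

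By array, the median of complex III relative to the mean of its set was -0.22 under RHA siRNA and 0.32 under control siRNA in the polysomal RNA of set 1, and 0.29 and -0.16 in its cytoplasmic RNA. In set 2 it was 0.06 in both polysomal arrays, and 0.05 under RHA siRNA and -0.13 under control siRNA in cytoplasm. The cytoplasmic control array was the lowest of its set for complexes II and V in both sets, and for complexes III and IV in set 2 only. In set 1 the polysomal RHA siRNA array was the lowest for complexes III and IV.

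Complex IV, cytochrome c oxidase, was represented by small nuclear subunits that surround the mitochondrially encoded core. COX7A2, the subunit 7A isoform found in most tissues, had the smallest unadjusted p of all member probe sets. It read 324 and 285 in the polysomal RHA siRNA arrays of sets 1 and 2, against 686 and 472 in the polysomal control arrays. In cytoplasmic RNA it read 332 and 200.2 under RHA siRNA, against 545 and 421 under control siRNA. All 4 arrays under RHA siRNA were thus below all 4 control arrays. The log2 group means were 8.25 ± 0.13 under RHA siRNA and 9.15 ± 0.38 under control siRNA in polysomes, and 8.01 ± 0.52 and 8.90 ± 0.26 in cytoplasm (SD, n = 2 each). Over both fractions COX7A2 stood at 0.537 of its control level (log2 -0.90, SE 0.28; -0.90 in each set), with a limma unadjusted p of 0.0169 and an adjusted p of 1.00. Its loading was -0.01 (SE 0.56), the mean of -0.37 in set 1 and 0.35 in set 2. A dimmer probe set of COX7A2 read 451 and 121 under RHA siRNA against 692 and 72.0 under control siRNA in polysomal RNA, and had a log2 fold change of -0.27 (SE 0.98) over both fractions with overlapping groups, -0.61 in cytoplasm and 0.06 in polysomes.

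COX8A, a subunit at the membrane, depended on the set in level and in difference. It read 228 and 41.4 under RHA siRNA against 407 and 29.7 under control siRNA in polysomal RNA, and 448 and 39.7 under RHA siRNA against 125 and 28.6 under control siRNA in cytoplasm. Its loading was -2.68 in set 1 and 0.01 in set 2 (mean -1.34, SE 2.43). COX5A, which binds on the matrix side, read 1562 and 1237 under RHA siRNA against 1087 and 925 under control siRNA in cytoplasm, with no overlap (log2 0.47, SE 0.32; 0.52 and 0.42 in the sets). In polysomal RNA it read 1157 and 1074 under RHA siRNA against 1234 and 999 under control siRNA, and the groups overlapped. COX6B1, which faces the intermembrane space, read 1846 and 1921 under RHA siRNA against 2139.7 and 2127 under control siRNA in polysomal RNA, and 2509 and 2344 under RHA siRNA against 2475 and 1249 under control siRNA in cytoplasm. The 1249 of the cytoplasmic control array of set 2 was the low one, and COX6B1 had a loading of -0.64 (SE 0.56; -0.23 and -1.06). COX7B, a small membrane subunit, read 6479 and 5299 under RHA siRNA against 5912 and 5783 under control siRNA in polysomal RNA, and 5268 and 4904 under RHA siRNA against 5870.0 and 5700.3 under control siRNA in cytoplasm. Its groups did not overlap in cytoplasm, where RHA siRNA was lower, and its log2 fold change over both fractions was -0.09 (SE 0.21; -0.01 and -0.17).

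The isoform pairs of complex IV could be set side by side only in part. The muscle isoforms COX7A1 and COX6A2 stayed at or near the test limit on every array, as did COX4I2, and no muscle marker of the list used here was far above it: 2 of the 7 with a probe set were tested, TNNI3 and MYL2, with at most 44.2 and 40.7. COX6A2 read 35.4 and 14.3 under RHA siRNA against 26.0 and 11.1 under control siRNA in polysomal RNA, and 35.4 and 12.8 under RHA siRNA against 32.9 and 16.1 under control siRNA in cytoplasm, values too close to the limit to order. The loading median of complex IV was -0.24, with -0.30 in set 1 and 0.05 in set 2, and its cytoplasmic median 0.18.

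**Figure D3:**
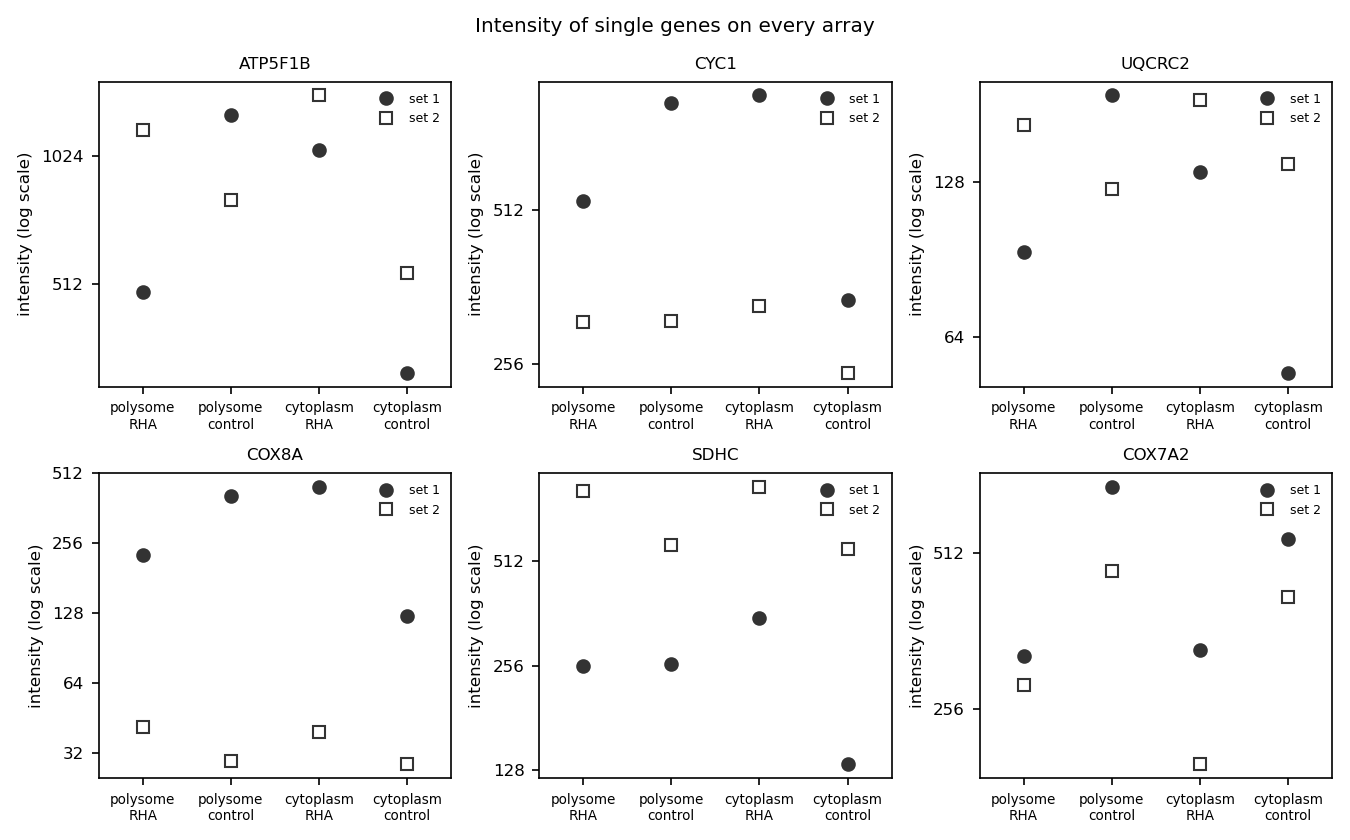
Intensity on a log axis of the brightest probe set of ATP5F1B, CYC1, UQCRC2, COX8A, SDHC and COX7A2 on each of the 8 arrays, by group, with filled circles for set 1 and open squares for set 2. COX7A2 is lower in all RHA siRNA arrays than in all control arrays, while the lowest set 1 value of the other 5 genes is that of the cytoplasmic control array.

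Complex V held the loading value farthest from 0 among the members. ATP5F1B, the catalytic beta subunit of the F1 head, read 491 and 1176 in the polysomal RHA siRNA arrays of sets 1 and 2, against 1275 and 809.5 in the polysomal control arrays. In cytoplasmic RNA it read 1061 and 1421 under RHA siRNA, against 317 and 545 under control siRNA. Cytoplasmic ATP5F1B was thus higher under RHA siRNA with no overlap, while the polysomal groups overlapped and the sets went opposite ways. Its log2 group means were 9.57 ± 0.89 under RHA siRNA and 9.99 ± 0.46 under control siRNA in polysomes, and 10.26 ± 0.30 and 8.70 ± 0.55 in cytoplasm (SD, n = 2 each). Its cytoplasmic fold change was 2.95 (log2 1.56, SE 0.55; 1.74 and 1.38 in sets 1 and 2; limma unadjusted p = 0.0266, adjusted p = 1.00). The loading of ATP5F1B was -1.98 (SE 0.77; -3.12 and -0.84), with an unadjusted p of 0.0400 and an adjusted p of 1.00 in limma. A dimmer probe set of the same gene read 113 and 132 under RHA siRNA against 64.2 and 94.0 under control siRNA in polysomal RNA, and 128 and 90.6 under RHA siRNA against 54.5 and 88.0 under control siRNA in cytoplasm. It was higher under RHA siRNA in both fractions, and its loading was 0.02, so the probe sets of ATP5F1B shared the cytoplasmic direction and not the loading.

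The other F1 subunits lay on either side of 0. ATP5F1D, the delta subunit of the central stalk, read 390.2 and 327 under RHA siRNA against 437 and 467 under control siRNA in polysomal RNA, and 283 and 328 under RHA siRNA against 555 and 357 under control siRNA in cytoplasm. The groups did not overlap in either fraction, and the log2 fold change over both was -0.44 (SE 0.25; -0.57 and -0.32). A dimmer probe set of ATP5F1D had 0.09 instead. ATP5F1C, the gamma subunit that turns within the head, had -0.32 (SE 0.33; -0.19 and -0.45), and ATP5F1E, the epsilon subunit, 0.08 (SE 0.23).

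Of the c subunits, which form the rotating ring in the membrane, ATP5MC1, ATP5MC2 and ATP5MC3 encode the same mature protein from separate genes. ATP5G1 is an older symbol that the annotation keeps under other gene IDs than these. Whether it marks a further c-subunit gene was not tested. ATP5MC2 read 92.7 and 132 under RHA siRNA against 113 and 172 under control siRNA in polysomal RNA, and 105 and 183 under RHA siRNA against 89.2 and 134 under control siRNA in cytoplasm. It was lower in the polysomes and higher in the cytoplasm of each set, and its loading was -0.68 (SE 0.64; -0.53 and -0.83). ATP5MC3 read 3368 and 3382 under RHA siRNA against 2734 and 2937 under control siRNA in cytoplasm, with no overlap (log2 0.25, SE 0.29), and 3439 and 3444 against 3722 and 3162 in polysomal RNA. ATP5G1 was higher under RHA siRNA in polysomal RNA with no overlap (1666 and 1682 against 1154 and 1504). ATP5MC1 had a loading of -0.32 (-0.67 and 0.03). The median loading of the 4 symbols was -0.28.

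ATP5MG, subunit g of the membrane part, read 3941 and 3944 under RHA siRNA against 3476 and 3165 under control siRNA in polysomal RNA, and 4313 and 3944 under RHA siRNA against 3709 and 2929.5 under control siRNA in cytoplasm. It was the one member whose 4 RHA siRNA arrays all lay above all 4 control arrays, by log2 0.29 (SE 0.21; 0.20 and 0.37). Among all genes, 1.86% lay higher and 1.46% lower without overlap in this comparison, as ATP5MG and COX7A2 did among the 31 members. In cytoplasm 4 members were higher and 5 lower without overlap, against 11.6% and 8.88% of all genes, and in polysomes 3 were higher and 4 lower, against 7.97% and 9.03%.

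Peripheral stalk subunits hold the F1 head still. ATP5PO, also called OSCP, read 1789 and 3319.9 under RHA siRNA against 2156 and 3332 under control siRNA in polysomal RNA, and 2797 and 3355 under RHA siRNA against 1689 and 3097 under control siRNA in cytoplasm. It had a loading of -0.56 (SE 0.69; -0.997 and -0.12), and -0.42 on its other tested probe set, whose mean siRNA effect was above 0 in both fractions. ATP5PD and ATP5PF had loadings of -0.15 (SE 0.59; -0.32 and 0.02) and -0.03 (SE 0.70; -0.04 and -0.02). ATP5PB was dim, between 21.7 and 33.0, with lower cytoplasmic signal under RHA siRNA and no overlap (log2 -0.40, SE 0.32). ATP5IF1, the inhibitor that binds F1 when the proton gradient fails, read 995 and 482 under RHA siRNA against 833 and 514 under control siRNA in polysomal RNA, and 1343 and 433 under RHA siRNA against 709 and 371 under control siRNA in cytoplasm. Its log2 fold change over both fractions was 0.33 (SE 0.49; 0.59 and 0.07), and 0.68 on a dimmer probe set. ATP5MJ, the small proteolipid, stayed between 113 and 126.

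The complex V medians were 0.25 in cytoplasm, 0.00 in polysomes and -0.07 for loading, the last at 0.02 with each array centred on its median. Loading was thus nearest to the median of all genes in complex V and farthest from it in complex III, and the difference between complexes was not tested. In set 2 the loading medians of complexes II, III, IV and V were -0.02, -0.22, 0.05 and -0.08, closer together than the -1.42, -1.21, -0.30 and -0.09 of set 1. Without the cytoplasmic control array of set 1 they were -0.28, -0.48, -0.39 and -0.11, and the cytoplasmic medians were -0.03, 0.18, 0.50 and -0.00. Those values also hold part of the difference between the sets, for which that fit has no term.

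For 11 genes with several tested probe sets, these shared a sign for 6 genes in both fractions, 5 in cytoplasm, 5 in polysomes and 4 for loading. The 4 genes that kept a sign for loading were ATP5PO, ATP5IF1 and UQCR11, below 0, and ATP5MJ, above 0. UQCRB had 4 tested probe sets with loadings between -0.88 and 0.25, and the 3 of UQCRC1 lay between -1.42 and 0.39. For SDHB, UQCRQ, COX6B1, COX7B, ATP5F1C, ATP5F1D, ATP5MG and ATP5PO the brightest probe set has the suffix that Affymetrix gives to probes shared by several transcripts, so related transcripts may add to these values.

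**Figure D4:**
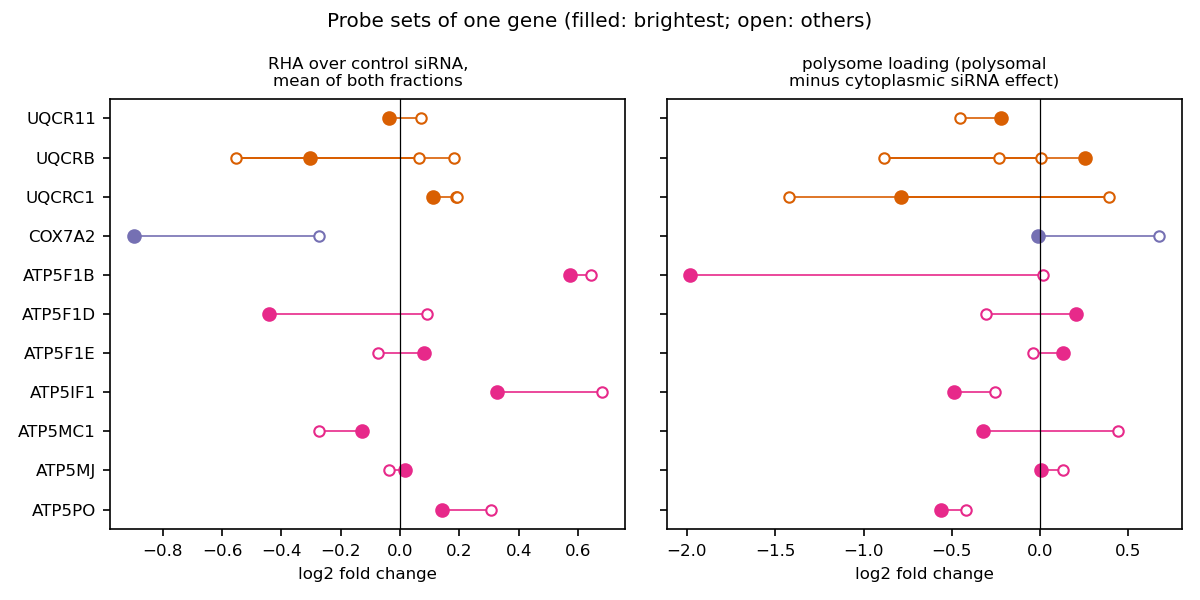
Log2 fold change of RHA over control siRNA as the mean of both fractions (left) and for polysome loading, polysomal minus cytoplasmic (right), for the 11 genes with several tested probe sets (rows, coloured by complex), with a filled circle for the brightest probe set and open circles for the others. The probe sets of ATP5F1B lie at 0.57 and 0.65 on the left and at -1.98 and 0.02 on the right.

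Polysomal was compared with cytoplasmic RNA under each siRNA to ask how the members' mRNAs were shared between the fractions. Under RHA siRNA the median log2 ratio of polysomal over cytoplasmic signal was -0.07 over the members (-0.20 and 0.03 in sets 1 and 2), against 0.02 over all genes, with 12 of 31 genes above 0 and a background of 52%. Without the cytoplasmic RHA siRNA array of set 1 it was 0.12. Under control siRNA it was 0.18 (0.23 and 0.11), against 0.08 over all genes, with 27 of 31 above 0 and a background of 61.8%. Without the cytoplasmic control array of set 2 it was 0.04. An unadjusted p under 0.05 was found for 0 of 45 probe sets under RHA siRNA, under control siRNA and for their mean, against 0.265%, 0.208% and 0.224% of all probe sets. These ratios share their arrays with the siRNA contrasts and are not independent of them.

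Under control siRNA, 4 members were higher in polysomal than in cytoplasmic RNA without overlap, against 10.2% of all genes, and 0 were lower, against 4.58%. They were ATP5F1B, SDHA, ATP5MC3 and UQCRQ. SDHA had 542 and 522 in polysomal against 439 and 419.8 in cytoplasmic RNA (log2 0.31, SE 0.31; 0.30 and 0.31 in the sets). UQCRQ had 2969 and 3126 in polysomal against 2956 and 2463 in cytoplasmic RNA. ATP5F1B had a log2 ratio of 1.29 (SE 0.55; 2.01 and 0.57), and CYC1 one of 0.81 (1.28 and 0.34) with overlapping groups. Under RHA siRNA the ratio was -0.69 for ATP5F1B (-1.11 and -0.27) and -0.39 for CYC1 (-0.69 and -0.10). Without overlap, 2 members were higher in polysomal RNA under RHA siRNA (COX7B and ATP5MC3) and 3 lower (COX5A, COX6B1 and ATP5MG), against 9.83% and 7.63% of all genes.

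By complex, the median ratio was -0.24, -0.33, -0.12 and 0.03 under RHA siRNA and 0.31, 0.37, 0.20 and 0.13 under control siRNA for complexes II, III, IV and V. As the mean of both siRNAs the median over the members was 0.11, against 0.07 over all genes, with 23 of 31 genes above 0 and a background of 63.2%. In that mean 0 members were higher and 0 lower without overlap, against 0.386% and 0.356% of all genes. With each array centred on its median, this mean was 0.01 over the members and -0.03 over all genes. Under control siRNA that centring gave 0.03 over the members and -0.07 over all genes, and complex V was then at -0.02 under RHA siRNA and -0.01 under control siRNA. Leaving out the set 1 cytoplasmic control array, the complex II ratio under control siRNA was -0.17, with polysomal arrays of both sets against the cytoplasmic array of set 2 alone. Within sets 1 and 2 this median was 0.40 and 0.04.

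Genes that work with these complexes were described beside them. Of the 25 tested subunit genes of complex I, which feeds electrons from NADH into the chain, 22 had log2 fold changes above 0 over both fractions (median 0.18) and 20 had loadings below 0 (median -0.21; -0.20 and -0.18 in sets 1 and 2). NDUFS4 had 0.46 (SE 0.24) and NDUFB10 0.39 (SE 0.24) over both fractions. The 5 carrier genes tested, for ADP, phosphate and porins, had a median loading of -0.78, with -1.49 in set 1 and -0.02 in set 2, and 5 of 5 were below 0. SLC25A3, the phosphate carrier, had -0.38 (SE 0.37) over both fractions and SLC25A4, an ADP/ATP carrier, 0.44 (SE 0.34).

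Assembly factors of complexes II to V had a median loading on the other side of 0. Of 29 tested, 12 had loadings below 0 (median 0.09; -0.06 and 0.27 in the sets), with log2 fold changes over both fractions of 0.50 (SE 0.25) for COA4 and 0.36 (SE 0.22) for BCS1L, the chaperone that inserts UQCRFS1. The citric acid cycle and pyruvate dehydrogenase genes had a median loading of 0.04 over 11 genes (-0.17 and 0.18 in the sets), the import and inner membrane genes -0.07 over 13 (-0.29 and 0.13), and the regulators of mitochondrial biogenesis 0.26 over 8 (0.08 and 0.40). Among these regulators GABPA had 0.50 (SE 0.27) and NRF1 -0.25 (SE 0.25) over both fractions. None of these genes passed the test, with an adjusted p of 1.00 in limma, and differences between the lists were not tested.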

How the data were processed

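RNA was measured on 8 one-colour arrays, 2 in each of 4 groups. The authors deposited 1 linear intensity per probe set and array. Over all probe sets the medians of the arrays were alike (19.3 to 20.8), while the upper quartiles ran between 56.4 and 77.8. The values were used without further normalisation, and quantile normalisation and centring were alternatives. GCOS and RMA are named in the submitters' processing notes, without versions or roles. The 99 Affymetrix controls were left out, gene symbols came from the platform annotation, and probe-level values and detection calls were not used here. Precision is limited by the number of arrays.

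Intensities were log2-transformed. The 50% of probe sets with the higher mean over all 8 arrays (26383 of 52766) entered a 4-group model without a further term (limma 3.58.1, R 4.3.3; lmFit, contrasts.fit, eBayes; two-sided). Benjamini-Hochberg adjusted p-values ran over all tested probe sets, with a threshold of 0.05. Medians over genes use the brightest probe set of each gene and carry no test. Separate cultures are not stated for the replicates, and p-values then measure the spread between arrays alone, which may be technical. Because the main fit has no term for the set, this spread and the SEs given above also hold the difference between the sets. The fit was tested on simulated data.

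The members and the gene lists were chosen with earlier results of these data known. Values on every array are given for DHX9 and, per complex and contrast, for the 2 genes with the smallest unadjusted p. Other genes were named after their values were seen. Alternatives were other scalings, filters and moderation, all probe sets of a gene, the replicate number as a term and leaving out each array.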

Additional observations from a re-analysis of the deposited data

Results flagged for a closer look

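In CYC1, COX6B1, ATP5MC2 and ATP5PO the siRNA effect had opposite signs in the polysomal and the cytoplasmic RNA of both sets. These are 4 of the 31 members (12.9%), against 9.91% of all tested genes. CYC1 had polysomal log2 fold changes of -0.64 and -0.01 in sets 1 and 2 against 1.33 and 0.43 in cytoplasm, a loading of -1.20. COX6B1 had -0.21 and -0.15 against 0.02 and 0.91, a loading of -0.64. ATP5MC2 had -0.29 and -0.38 against 0.24 and 0.45, a loading of -0.68, and ATP5PO -0.27 and -0.0051 against 0.73 and 0.12, a loading of -0.56. The values of CYC1 and ATP5PO in the polysomes of set 2 and of COX6B1 in the cytoplasm of set 1 were close to 0. On the other tested probe set of ATP5PO the mean over the sets was above 0 in both fractions, at 0.10 in polysomes and 0.52 in cytoplasm. The opposite signs were thus not seen there. The test of the difference itself, the loading contrast in limma, gave each an adjusted p of 1.00.

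The medians of 3 complexes showed the same split in sign, with polysomal medians close to 0 in set 2. For them the difference was not tested. Over all tested genes the medians in sets 1 and 2 were -0.03 and 0.02 in polysomes and 0.06 and 0.01 in cytoplasm. Complex III had polysomal medians of -0.56 and -0.01 in sets 1 and 2 against 0.44 and 0.22 in cytoplasm, with a loading median of -0.79. Complex IV had -0.15 and -0.01 against 0.06 and 0.10, with a loading median of -0.24 that was -0.30 in set 1 and 0.05 in set 2. Complex V had -0.11 and -0.01 against 0.22 and 0.05, with a loading median of -0.074. With each array centred on its median, complex V had a polysomal median of 0.036 and a loading median of 0.024, so its split was not seen there. The 3' minus 5' shift of the control transcripts, 2.25 for loading in set 1 and -0.08 in set 2, stands beside these values, and its part in them was not tested.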

How the results depend on the processing

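No member probe set passed the threshold in the main fit (0 of 45 in each contrast) or under any alternative run, so the alternatives bear on medians and directions. The runs with another filter, or with none, tested another number of member probe sets than the main fit. The median of polysomal over cytoplasmic signal as the mean of both siRNAs, 0.11, was 0.035 after quantile normalization, 0.0061 with each array centred on its median and 0.083 with 16 added before the logarithm. Under control siRNA alone it was 0.026 with each array centred. The cause was not tested. Background correction could not be varied because only summarised values were used.

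With 1 array left out, the member medians ranged from -0.064 to 0.16 for both fractions, 0.00077 to 0.35 in cytoplasm, -0.18 to 0.0036 in polysomes, -0.38 to -0.05 for loading, and, for polysomal over cytoplasmic RNA, 0.055 to 0.13 as the mean of both siRNAs, -0.13 to 0.12 under RHA siRNA and 0.044 to 0.22 under control siRNA. Single genes were followed in this way only where they were the 2 with the smallest unadjusted p of their complex in a contrast. Among these, the sign turned for UQCRC2 (-0.058 to 0.61) and SDHB (-0.23 to 0.16) in both fractions, SDHC (-0.030 to 2.02) and SDHB (-0.13 to 0.64) in cytoplasm, and UQCRFS1 (-1.03 to 0.24), COX6A2 (-0.25 to 1.06) and UQCRQ (-0.51 to 0.022) in polysomes. It also turned in the polysomal over cytoplasmic mean for UQCRC2 (-0.10 to 0.57), SDHB (-0.35 to 0.036) and ATP5F1B (-0.016 to 0.61). These fits have no term for the set, so with 1 array left out the difference between the sets enters the value. Within the sets, UQCRC2 over both fractions (0.14 and 0.41) and SDHC in cytoplasm (1.39 and 0.60) kept their sign. So did UQCRFS1 (-0.56 and -0.23) and COX6A2 (0.44 and 0.37) in polysomes. SDHB over both fractions and in cytoplasm, and UQCRQ in polysomes, had opposite signs in the sets.

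The replicate numbers do not say that arrays were paired, but the differences between the sets correlated between groups at 0.680 to 0.868 across probe sets. With the replicate number as a block, 0 of 45 member probe sets were called. The background was 0.00758% of all tested probe sets for both fractions and 0% in cytoplasm, in polysomes and for loading. An unadjusted p under 0.05 was found with the block for 4, 7, 1 and 3 member probe sets in these contrasts, against 12%, 12%, 5.06% and 3.97% of all tested probe sets. The smallest adjusted p with the block was 0.144 for COX7A2 over both fractions. Chosen after seeing the data, the block without the cytoplasmic control array of set 1 gave a polysomal over cytoplasmic median of 0.035, and reversed UQCRC2 over both fractions (-0.0011), SDHB in cytoplasm (-0.11) and UQCRC2 in the polysomal over cytoplasmic mean (-0.044).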
